A study of Homo sapiens with 4 samples.

Results

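The 9 genes described here encode proteins that limit ferroptosis or sit on the mitochondrial outer membrane where ferroptosis is modulated: SLC7A11, SLC3A2, GPX4, AIFM2, DHODH, GCH1, CISD1, VDAC2 and VDAC3. They were taken as a list of names, matched by gene symbol, and all 9 were found among the 15415 genes measured in both cell lines. Their RNA was read by sequencing in UMUC3 and SW780, established human bladder cancer cell lines. In each line, cells with SCD1 knocked down by lentivirus (shSCD1) were set beside shNT cells, whose genotype is labelled WT. UMUC3 was grown in MEM and SW780 in DMEM, all with serum. Each of the 4 groups held 1 library, and how many hairpins, clones or cultures stand behind a library is not stated. There was therefore no replicate spread and no test within a line, and higher or lower describes these libraries alone.

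Ferroptosis is a form of cell death driven by iron-dependent peroxidation of polyunsaturated fatty acids in membrane phospholipids. Cells hold it back along several routes: cystine is imported by system xc- and used for glutathione, GPX4 spends glutathione to reduce phospholipid hydroperoxides, and separate enzymes regenerate radical-trapping quinols or make tetrahydrobiopterin. SCD, the gene of SCD1, makes monounsaturated fatty acids, which are much less easily peroxidised and compete with polyunsaturated ones for places in membranes.

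Levels are given as CPM, a gene's reads scaled to a common library total, with exact 95% Poisson intervals, and a difference as the fold between shSCD1 and shNT with an exact 95% Clopper-Pearson interval. Both intervals cover counting error only. Totals ran from 22818368 to 34087871 reads, and the members held 120 to 12094 reads per library. Log2 ratios are of CPM plus 1, and the size rule asked for a 2-fold difference, up or down, on that scale. The deposited tables call the libraries first and second. The second was read as shSCD1, since the tables are named for shSCD1 and their ratios divide second by first, and all directions would turn round if this were wrong. SCD itself stood at 264 and 59.6 CPM in UMUC3, 4.44-fold lower in the second library (4.22 to 4.67), and at 592 and 92.1 CPM in SW780, 6.43-fold lower (6.16 to 6.71). Transcripts of the mitochondrial genome made up 4.23% and 6.02% of UMUC3 reads and 4.33% and 4.51% of SW780 reads. Of the 12 epithelial and urothelial markers, 11 reached 1 CPM in SW780 and 6 in UMUC3, where KRT19 had 0 reads. Their summed level went from 536 to 264 CPM in UMUC3, with KRT18 at 372 and 170 CPM, and from 12367 to 10239 CPM in SW780. The median log2 ratio was −0.72 over the 6 in UMUC3 and −0.23 over the 11 in SW780. By the size rule 2 of the 6 were lower in UMUC3, where 2.18% of all genes were, and 0 in SW780, where 1.06% were. Of 6 blood cell markers CD68 alone reached 1 CPM, and their sum went from 67.0 to 47.6 CPM in UMUC3 and from 17.8 to 13.0 CPM in SW780. Of 7 markers of endothelium and fibroblasts, 5 reached 1 CPM in SW780, with 4 above 0 and a median log2 ratio of 0.39. In UMUC3 2 did, with a median of −0.40. The summed level of the 7 went from 195 to 278 CPM in SW780 and from 2.59 to 1.48 CPM in UMUC3, with CDH5 under 1 CPM in all libraries. The sum of 5 housekeeping genes went from 13381 to 11656 CPM in UMUC3, with 4 of them below 0 and a median log2 ratio of −0.11. In SW780 it went from 9570 to 11214 CPM, with 4 above 0 and a median of 0.32, which is above the ratio of all 9 members in that line. The part of these shifts in the results below was not tested.

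No defence gene differed 2-fold between shSCD1 and shNT in either line. The count was 0 of 9 in UMUC3, where 4.64% of 14063 genes passed the size rule, and 0 of 9 in SW780, where 2.54% of 12880 genes did. The lines were unlike in the size of the differences. In UMUC3 the log2 ratios of the members ran from −0.43 (AIFM2) to 0.80 (GCH1), with 5 above 0 and 4 below, and their median size was 0.36 against 0.25 over all genes. In SW780 they ran from −0.09 (DHODH) to 0.12 (SLC3A2), again with 5 above 0 and 4 below, and their median size was 0.05 against 0.16 over all genes. Over all genes 45.7% lay below 0 in UMUC3 and 51.5% in SW780. At a smaller rule of 1.5-fold, GCH1 alone passed in UMUC3, where 17.0% of genes did, and none passed in SW780, where 8.75% did.

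**Figure D1:**
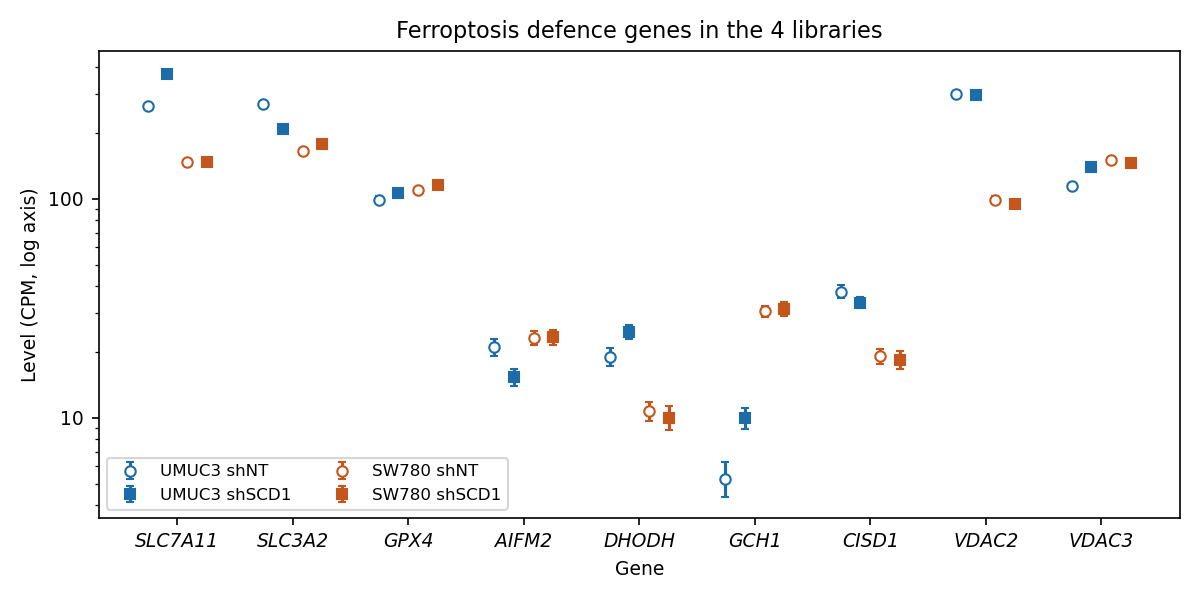
Level of each of the 9 genes in CPM (log axis) in the 4 libraries, open circles for shNT and filled squares for shSCD1, with exact 95% Poisson intervals that cover counting error only. The SW780 symbols of a gene lie nearly level, while in UMUC3 SLC7A11, GCH1, DHODH and VDAC3 were higher and SLC3A2 and AIFM2 lower in shSCD1.

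The subunits of system xc- moved apart in UMUC3. SLC7A11 encodes the light chain that exchanges cystine for glutamate. It stood at 264 CPM (258 to 271) in UMUC3 shNT, 372 CPM (365 to 378) in UMUC3 shSCD1, 147 CPM (142 to 151) in SW780 shNT and 147 CPM (143 to 152) in SW780 shSCD1. It was thus highest in the UMUC3 shSCD1 library, and the SW780 libraries lay within each other's intervals. The shSCD1 library was 1.41-fold higher in UMUC3 (1.36 to 1.45) and 1.01-fold as high in SW780 (0.964 to 1.05). The gene (ENSG00000151012) lies on the minus strand of chromosome 4 from 138164097 to 138242349 (GRCh38, GENCODE 29), and 8.97% of its exonic bases also lie in exons of the antisense gene SLC7A11-AS1. That gene held 43 and 55 reads in the UMUC3 libraries, against 6031 and 12094 for SLC7A11. Whether strand was used in counting is not given.

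SLC3A2 encodes the heavy chain that SLC7A11 and other amino acid transporters need to reach the cell surface. It stood at 270 CPM (264 to 277) in UMUC3 shNT and 209 CPM (204 to 214) in UMUC3 shSCD1. In SW780 it stood at 164 CPM (160 to 169) in shNT and 178 CPM (173 to 183) in shSCD1. The order of the libraries was opposite in the lines: shSCD1 was 1.29-fold lower in UMUC3 (1.25 to 1.34), and in SW780 1.08-fold higher (1.04 to 1.13). SLC3A2 (ENSG00000168003) lies on the plus strand of chromosome 11 from 62856102 to 62888875.

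Per kilobase of exonic sequence, SLC3A2 stood 1.90 times as high as SLC7A11 in UMUC3 shNT (1.84 to 1.97) and 1.05 times in UMUC3 shSCD1 (1.02 to 1.08). In SW780 it stood 2.09 times as high in shNT (2.01 to 2.17) and 2.25 times in shSCD1 (2.16 to 2.35). On this scale the excess of heavy over light chain RNA was thus small in 1 of the 4 libraries, UMUC3 shSCD1. The scale takes all annotated exons, 9645 bases for SLC7A11 and 5178 for SLC3A2, whichever transcripts the cells used. By reads alone, SLC7A11 over SLC3A2 was 0.978 in UMUC3 shNT and 1.78 in UMUC3 shSCD1. In SW780 it was 0.892 in shNT and 0.827 in shSCD1. These ratios need no scaling between libraries, since both genes were read in the same one.

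Other light chains share SLC3A2. Of 7 listed, SLC7A5, the large neutral amino acid transporter, and SLC7A6 were the ones above 1 CPM in UMUC3. SLC7A5 stood at 281 and 319 CPM there, 1.13-fold higher in shSCD1 (1.10 to 1.17). SLC7A6 stood at 68.4 and 103 CPM, 1.51-fold higher (1.42 to 1.60). In SW780, SLC7A5 went from 208 to 306 CPM, 1.47-fold higher (1.43 to 1.52). There SLC7A8 was 2.14-fold lower (1.89 to 2.42) at 29.1 and 13.6 CPM, and SLC7A7 was 4.04-fold higher (3.06 to 5.40) at 1.99 and 8.06 CPM. These were the light chains past the size rule.

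**Figure D2:**
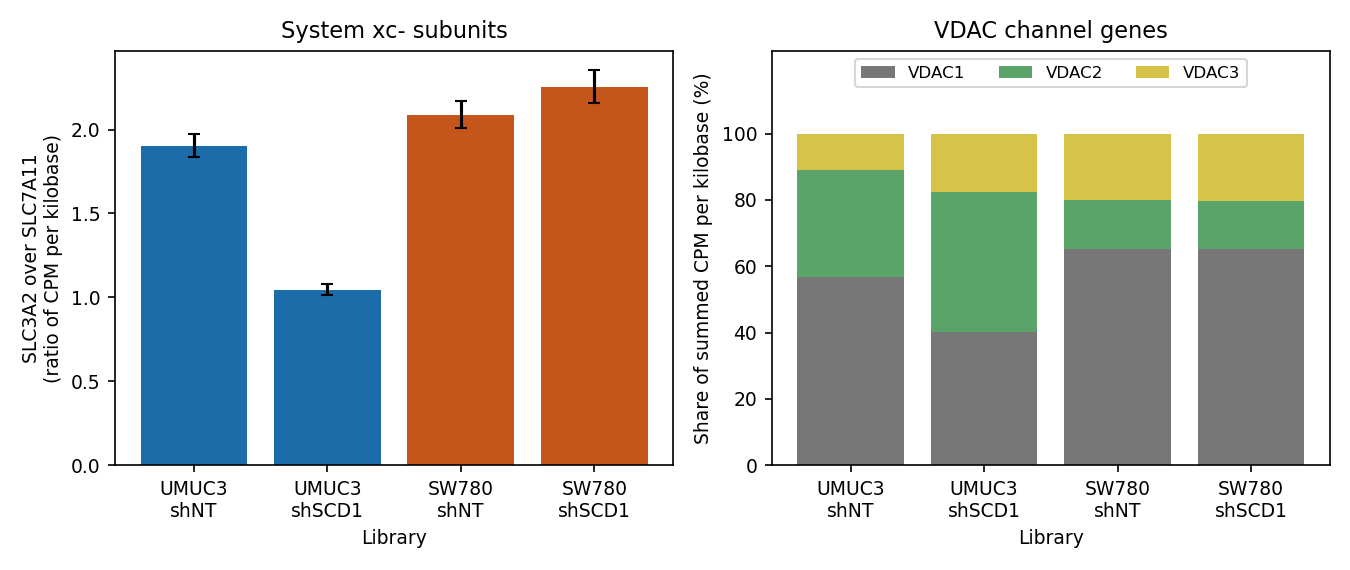
Left, SLC3A2 over SLC7A11 in each library as a ratio of CPM per kilobase of exonic sequence, with 95% intervals from the shares of reads (counting error only). Right, VDAC1, VDAC2 and VDAC3 as percent of their summed CPM per kilobase. UMUC3 shSCD1 stands apart from the other libraries on the left, and on the right its VDAC1 share is the lowest of the 4.

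GPX4, the selenoprotein that reduces phospholipid hydroperoxides inside membranes, hardly differed. It stood at 99.0 CPM (94.96 to 103) in UMUC3 shNT, 106 CPM (102 to 109) in UMUC3 shSCD1, 110 CPM (106 to 113) in SW780 shNT and 116 CPM (112 to 120) in SW780 shSCD1. All 4 libraries fell in a narrow band, with shSCD1 a little above shNT in each line. The folds were 1.07 (1.01 to 1.13) in UMUC3 and 1.06 (1.01 to 1.11) in SW780. The authors' deposited tables, with their own scaling, list GPX4 at 0.012 on the log2 scale for UMUC3 and at 0.09 for SW780. GPX4 (ENSG00000167468) lies on the plus strand of chromosome 19 from 1103926 to 1106791.

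Of 15 other peroxidases, peroxiredoxins and thioredoxin genes, 11 reached 1 CPM in UMUC3 and 14 in SW780, and none passed the size rule. GPX2, a peroxidase of epithelia, stood at 280 and 177 CPM in SW780, 1.58-fold lower in shSCD1 (1.53 to 1.64), and held 7 and 8 reads in UMUC3. PRDX3, the mitochondrial peroxiredoxin, was 1.55-fold lower in UMUC3 (1.498 to 1.60) and, in SW780, 1.27-fold lower (1.22 to 1.32). GPX8 went from 43.1 to 62.3 CPM in SW780, 1.45-fold higher (1.35 to 1.55), and in UMUC3 its fold was 1.06 (0.991 to 1.13). GPX4 needs selenocysteine, and none of the 21 selenium genes passed the size rule in either line. LRP8, a receptor that takes up selenoprotein P, was 1.85-fold higher in UMUC3 (1.72 to 1.99), and in SW780 1.31-fold lower (1.24 to 1.40). PSTK, the kinase that prepares the selenocysteine tRNA, stood at 9.12 and 4.49 CPM in UMUC3 (2.03-fold lower, 1.64 to 2.53) and at 2.87 and 3.37 CPM in SW780. Its log2 ratio of −0.88 missed the size rule through the added 1 CPM. SELENON was 1.37-fold higher in UMUC3 (1.30 to 1.45) and, in SW780, 1.87-fold (1.78 to 1.96).

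Among the glutathione-independent routes, AIFM2 encodes FSP1, which regenerates ubiquinol and vitamin K hydroquinone at membranes. It stood at 20.9 CPM (19.1 to 22.9) in UMUC3 shNT, 15.3 CPM (13.99 to 16.7) in UMUC3 shSCD1, 23.1 CPM (21.6 to 24.8) in SW780 shNT and 23.2 CPM (21.4 to 25.2) in SW780 shSCD1. UMUC3 shSCD1 was the lowest of the libraries, and its interval met none of the others. The shSCD1 library was 1.37-fold lower in UMUC3 (1.20 to 1.55), while the fold in SW780 was 1.00 (0.901 to 1.12). AIFM2 (ENSG00000042286) lies on the minus strand of chromosome 10 from 70098223 to 70132934.

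SLC3A2 and AIFM2 had the lowest ratios of the members in UMUC3. A short match upstream of a start site of each was looked for after these values were known. Its link to the ratios was not tested. The core of the antioxidant response element, the site bound by NRF2 with small MAF proteins, was searched as TGACNNNGC on both strands of the 250 bases before each RefSeq start site. Of the 9 members, 6 had an entry in the promoter table (SLC7A11, GCH1 and VDAC3 did not), with 11 start sites. The core stood before 2 of the 11, at AIFM2 and SLC3A2, against 10.9% of all 35116 such windows. With so few windows this does not set these genes apart. The other SLC3A2 windows, from 62855859 and from 62880646, held no core. Both match TGACTCAGC, read on the gene's own strand in SLC3A2 and on the opposite strand in AIFM2, and these letters also hold TGACTCA, the AP-1 site. The stretches follow 5′ to 3′ on the gene's strand with the core in capitals (RefSeq, GRCh38.p14), for AIFM2 from chr10:70132829-70132857 on the minus strand and for SLC3A2 from chr11:62881652-62881680 on the plus strand. The first core base lies 22 bases before the AIFM2 start and 37 bases before the SLC3A2 start, and both stretches lie within the span of their gene in GENCODE 29.
AIFM2: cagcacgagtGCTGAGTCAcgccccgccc
SLC3A2: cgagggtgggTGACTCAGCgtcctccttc
All 29 bases of the AIFM2 stretch and 13 of those of SLC3A2 lie in annotated exons. A match is a description of letters and not a bound site. NFE2L2, the gene of NRF2, was 1.20-fold lower in UMUC3 shSCD1 (1.15 to 1.26) and 1.21-fold lower in SW780 shSCD1 (1.16 to 1.25). In SW780, SLC3A2 was 1.08-fold higher in shSCD1 and the fold of AIFM2 was 1.00. Other genes described as NRF2 targets went both ways in UMUC3 shSCD1. There GCLM was 1.45-fold, SLC7A11 1.41-fold and GCLC 1.14-fold higher, while TXNRD1 was 1.27-fold and NQO1 1.12-fold lower. In SW780 shSCD1, GCLC was 1.41-fold, NQO1 1.33-fold, GCLM 1.27-fold and TXNRD1 1.02-fold lower, and SLC7A11 was 1.01-fold as high. Whether NRF2 had a part in any of these ratios was not tested. The core of the amino acid response element bound by ATF4, searched as TGATGNAA, stood in none of the 11 windows and in 3.14% of all. The GC box GGGCGG stood in 10 of the 11 and in 42.6% of all.

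DHODH, the mitochondrial enzyme of pyrimidine synthesis, passes electrons to ubiquinone. It stood at 18.9 CPM (17.1 to 20.8) in UMUC3 shNT, 24.6 CPM (22.9 to 26.3) in UMUC3 shSCD1, 10.7 CPM (9.61 to 11.8) in SW780 shNT and 9.94 CPM (8.76 to 11.2) in SW780 shSCD1. The UMUC3 libraries lay above the SW780 ones, and their intervals did not meet. The shSCD1 library was 1.30-fold higher in UMUC3 (1.16 to 1.47), and in SW780 1.07-fold lower (0.913 to 1.27). DHODH (ENSG00000102967) lies on the plus strand of chromosome 16 from 72008588 to 72027664. Of 6 other pyrimidine genes none passed the size rule in either line. CAD, which catalyses the first steps of that pathway, was 1.21-fold higher in UMUC3 (1.16 to 1.27) and, in SW780, 1.08-fold lower (1.03 to 1.13). CTPS1, which makes CTP, stood at 238 and 218 CPM in UMUC3 and at 206 and 258 CPM in SW780. UCK2, a salvage kinase, stood at 89.8 and 74.6 CPM in UMUC3 and at 60.2 and 67.3 CPM in SW780.

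GCH1 makes the first step of tetrahydrobiopterin synthesis and differed most of the 9, in level between the lines and in UMUC3 between the libraries. It stood at 5.26 CPM (4.36 to 6.29) in UMUC3 shNT, 9.93 CPM (8.87 to 11.1) in UMUC3 shSCD1, 30.5 CPM (28.7 to 32.5) in SW780 shNT and 31.3 CPM (29.2 to 33.6) in SW780 shSCD1. Both UMUC3 libraries lay below both SW780 libraries. The shSCD1 library of UMUC3 was 1.89-fold higher (1.53 to 2.35), from 120 and 323 reads, and that of SW780 1.03-fold (0.934 to 1.13). In UMUC3 95.3% of the genes measured at 1 CPM had a lower log2 ratio. GCH1 (ENSG00000131979) lies on the minus strand of chromosome 14 from 54842008 to 54902852.

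PTS and SPR, which follow GCH1 in the synthesis, did not share its ratio in UMUC3. PTS, the next enzyme, went from 30.1 to 19.9 CPM, 1.51-fold lower (1.35 to 1.68), and SPR, the last, from 20.8 to 17.1 CPM, 1.21-fold lower (1.07 to 1.37). DHFR2, a dihydrofolate reductase copy, was 1.73-fold higher (1.497 to 2.00). In SW780 PTS was 1.15-fold higher (1.05 to 1.25) and SPR 1.01-fold (0.923 to 1.10). None of the 8 tetrahydrobiopterin genes passed the size rule in either line. GCHFR, the feedback protein that binds GCH1, held 0 and 4 reads in UMUC3 and 316 and 201 reads in SW780.

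The ubiquinone and quinone reduction genes, which supply the substrates of FSP1, were mostly a little lower. Of 19, all reached 1 CPM in both lines and none passed the size rule. In UMUC3 13 lay below 0 with a median log2 ratio of −0.07, and in SW780 16 lay below 0 with a median of −0.14, against medians over all genes of 0.04 and −0.01. COQ10B, a ubiquinone-binding protein, was 1.30-fold lower in UMUC3 (1.20 to 1.42), and in SW780 1.49-fold lower (1.35 to 1.64). COQ4 was 1.51-fold higher in UMUC3 (1.25 to 1.83) and, in SW780, 1.16-fold lower (1.06 to 1.28). VKORC1, a vitamin K reductase, was 1.38-fold lower in UMUC3 (1.23 to 1.55) and stood at 41.8 and 39.6 CPM in SW780.

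**Figure D3:**
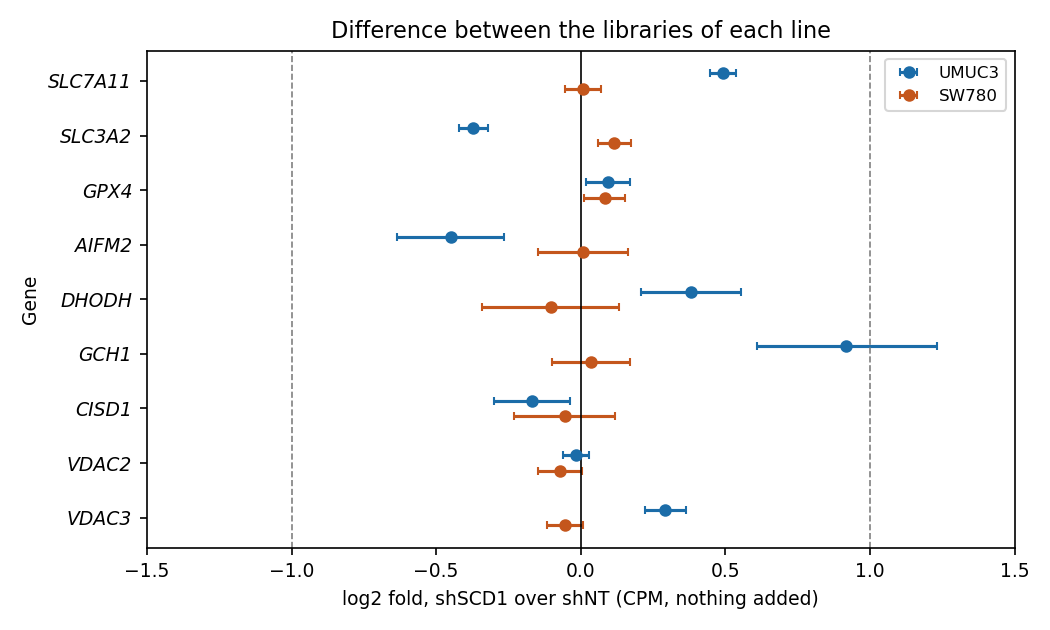
Log2 fold of shSCD1 over shNT for each of the 9 genes, from CPM with nothing added, with exact 95% Clopper-Pearson intervals (counting error only); dashed lines mark 2-fold. In SW780 all points lie close to 0, and in UMUC3 GCH1 is the farthest from 0, with an interval that reaches past 2-fold.

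The outer membrane members differed little, and the largest log2 ratio among them was that of VDAC3 in UMUC3, at 0.29. In UMUC3 56.0% of the genes measured at 1 CPM had a log2 ratio of smaller size. CISD1 encodes mitoNEET, an iron-sulfur protein that limits mitochondrial iron. It stood at 37.6 CPM (35.2 to 40.2) in UMUC3 shNT, 33.5 CPM (31.5 to 35.5) in UMUC3 shSCD1, 19.1 CPM (17.6 to 20.6) in SW780 shNT and 18.4 CPM (16.7 to 20.1) in SW780 shSCD1. The libraries of each line lay close together, UMUC3 above SW780. In UMUC3 the shSCD1 library was 1.12-fold lower (1.03 to 1.23), and in SW780 1.04-fold (0.921 to 1.17). CISD1 (ENSG00000122873) lies on the plus strand of chromosome 10 from 58269058 to 58289586.

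VDAC2 and VDAC3 encode channels for metabolites through that membrane, and both proteins are bound by erastin, a compound that also blocks system xc-. VDAC2 stood at 301 CPM (294 to 308) in UMUC3 shNT, 298 CPM (292 to 304) in UMUC3 shSCD1, 98.9 CPM (95.6 to 102) in SW780 shNT and 94.1 CPM (90.4 to 98.0) in SW780 shSCD1. Within a line the libraries' intervals overlapped, and the folds were 0.989 (0.959 to 1.02) in UMUC3, with a sign that turned when mitochondrial transcripts were left out of the total, and 0.952 (0.903 to 1.00) in SW780. The UMUC3 table also gives 1209 and 1590 reads to the pseudogene VDAC2P5, so the VDAC2 level is uncertain where copies could share reads; with both summed the fold in UMUC3 was 0.979 (0.952 to 1.01). VDAC2 (ENSG00000165637) lies on the plus strand of chromosome 10 from 75210154 to 75231448.

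VDAC3 (ENSG00000078668, plus strand of chromosome 8 from 42391624 to 42405897) stood at 114 CPM (110 to 118) in UMUC3 shNT and 139 CPM (135 to 144) in UMUC3 shSCD1. In SW780 it stood at 150 CPM (146 to 155) in shNT and 145 CPM (140 to 149) in shSCD1. UMUC3 shNT was the lowest of the libraries, and the other 3 lay within overlapping or adjoining intervals. The shSCD1 library was 1.22-fold higher in UMUC3 (1.17 to 1.29), and in SW780 1.04-fold lower (0.996 to 1.08).

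VDAC1, the third channel of the family, differed more than both members in UMUC3. It went from 592 to 320 CPM there, 1.85-fold lower (1.80 to 1.90), and from 492 to 472 CPM in SW780, 1.04-fold lower (1.02 to 1.07). Per kilobase, VDAC1 made up 56.7% of the summed VDAC RNA in UMUC3 shNT and 40.3% in UMUC3 shSCD1, while VDAC2 went from 32.3% to 42.0% and VDAC3 from 11.0% to 17.7%. In SW780 the shares were 65.2%, 14.7% and 20.1% in shNT, and 65.3%, 14.6% and 20.2% in shSCD1. The makeup of the family thus differed between the UMUC3 libraries and hardly between those of SW780. CISD2, a relative of CISD1, stood at 42.1 and 46.5 CPM in UMUC3, and AIFM1, a relative of AIFM2 that acts in mitochondria, at 88.9 and 61.4 CPM, 1.45-fold lower (1.36 to 1.54). In SW780 AIFM1 was 1.17-fold lower (1.10 to 1.25).

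Levels of different genes were compared per kilobase of exonic sequence. In UMUC3 shNT the order was VDAC2 (107 CPM per kilobase), SLC3A2 (52.2), GPX4 (49.0), VDAC3 (36.3), SLC7A11 (27.4), CISD1 (13.2), AIFM2 (4.07), DHODH (2.73) and GCH1 (1.78). The intervals of SLC3A2 and GPX4 overlapped there, and those of other neighbours did not. In SW780 shNT the order was GPX4 (54.2 CPM per kilobase), VDAC3 (47.9), VDAC2 (34.98), SLC3A2 (31.7), SLC7A11 (15.2), GCH1 (10.3), CISD1 (6.67), AIFM2 (4.51) and DHODH (1.54), with no overlap between neighbours. In both shNT libraries the glutathione-independent enzymes AIFM2 and DHODH stood among the 3 lowest. GCH1, the other member of that group, was the lowest in UMUC3 shNT but stood above CISD1 in SW780 shNT. In UMUC3 shSCD1 the intervals of DHODH, GCH1 and AIFM2 overlapped from neighbour to neighbour, at 3.55, 3.36 and 2.98 CPM per kilobase.

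The shNT libraries of the lines were set side by side over the 15415 genes in both tables, which the authors scaled separately. GCH1 stood 5.74-fold higher in SW780 (4.74 to 6.99). VDAC2 stood 3.08-fold higher in UMUC3 (2.96 to 3.21). SLC7A11 was 1.83-fold (1.76 to 1.90), SLC3A2 1.67-fold (1.61 to 1.73), DHODH 1.79-fold (1.55 to 2.07) and CISD1 2.00-fold higher in UMUC3 (1.80 to 2.22). VDAC3 was 1.30-fold (1.24 to 1.37) and GPX4 1.09-fold higher in SW780 (1.04 to 1.15), and for AIFM2 the fold of 1.09 had an interval of 0.975 to 1.23. On the scale of CPM plus 1, 2 of the 9 were at least 2-fold apart, where 35.7% of 11152 genes were. Line and growth medium cannot be told apart here.

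How far the knockdown differences of the lines were apart was described by the log2 fold of UMUC3 minus that of SW780, with a 95% interval from the reads. It was 0.88 for GCH1 (0.55 to 1.21), 0.48 for SLC7A11 (0.41 to 0.56), 0.48 for DHODH (0.20 to 0.77) and 0.35 for VDAC3 (0.25 to 0.44). It was −0.49 for SLC3A2 (−0.56 to −0.41) and −0.46 for AIFM2 (−0.69 to −0.22). The intervals of these 6 left out 0 and those of GPX4, CISD1 and VDAC2 did not. With 1 library per group, no test of these differences could be made. The counting interval of the fold left out 1 for 8 of 9 members in UMUC3, where it did so for 65.5% of genes, and for 2 of 9 in SW780, where it did so for 57.8%. In the authors' deposited tables, the GFOLD value, a log2 fold change shrunk towards 0, was not 0 for 8 of 9 members in UMUC3 (60.7% of genes) and for 2 of 9 in SW780 (51.8%).

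The other genes of ferroptosis control were read from 12 lists with 182 genes, of which 147 reached 1 CPM in UMUC3 and 165 in SW780. By the size rule 1 was higher and 2 lower in UMUC3, and 1 higher and 2 lower in SW780, SCD among the lower ones of both. Over all genes 2.47% were higher and 2.18% lower in UMUC3, and 1.48% and 1.06% in SW780. In UMUC3 the higher one was MAT2A, which makes S-adenosylmethionine at the head of the route from methionine to cysteine. Its level was 379 CPM in shNT and 856 CPM in shSCD1, 2.26-fold higher (2.20 to 2.31), while SW780 stood at 411 and 378 CPM. The other lower one was PROM2, a membrane glycoprotein linked to iron export, at 182 and 20 reads, 13.0-fold lower (8.16 to 21.7). In SW780, PROM2 stood at 448 and 442 CPM. The genes past the rule in SW780 besides SCD were the light chains SLC7A7 and SLC7A8.

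The median log2 ratio of the cysteine and glutathione genes was 0.18 in UMUC3 and −0.18 in SW780, against 0.04 and −0.01 over all genes. In UMUC3 15 of 21 were above 0 and 6 below, and in SW780 9 of 22 were above 0 and 13 below. SLC38A1, a glutamine transporter, was 1.51-fold higher in UMUC3 (1.48 to 1.54) and stood at 460 and 461 CPM in SW780. GLRX, which encodes glutaredoxin, was 1.49-fold lower in UMUC3 (1.17 to 1.91) and, in SW780, 1.81-fold lower (1.56 to 2.10). GGT7 was 1.52-fold lower in SW780 (1.31 to 1.76), and in UMUC3 its fold was 1.13 (0.984 to 1.30). Among other suppressors, the aldo-keto reductases AKR1C1, AKR1C2 and AKR1C3, which are near-identical and may share reads, had log2 ratios of −0.92, −0.97 and −0.87 in SW780.

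Genes that promote ferroptosis showed no shift past the size rule. Of the list of lipid peroxidation and polyunsaturated phospholipid genes, 17 were measured at 1 CPM in UMUC3 with a median of −0.09, and 20 in SW780 with a median of −0.05. ACSL4, which activates polyunsaturated fatty acids for membranes, had 0 reads in both UMUC3 libraries, where the exact Poisson interval reaches up to 0.162 and 0.113 CPM and the one-sided floor of 3 reads lies at 0.131 and 0.0922 CPM. It stood at 98.0 and 99.3 CPM in SW780. FADS1, a desaturase of polyunsaturated fatty acids, was 1.47-fold higher in UMUC3 (1.42 to 1.54), and in SW780 1.48-fold lower (1.42 to 1.54). FAR1 was 1.48-fold higher (1.42 to 1.54) and CYB5R1 1.59-fold lower in UMUC3 (1.33 to 1.90).

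Iron genes had a median of 0.11 in UMUC3, with 7 of 10 above 0, and of −0.22 in SW780, with 8 of 10 below 0. Over all genes the medians were 0.04 and −0.01, and 45.7% lay below 0 in UMUC3 and 51.5% in SW780. With 10 genes per line, a shift of the list was not tested. HMOX1, which frees iron from haem, was 1.60-fold higher in UMUC3 (1.51 to 1.71) and, in SW780, 1.20-fold lower (1.07 to 1.34). STEAP3 was 1.52-fold lower in SW780 (1.44 to 1.61) and IREB2 1.42-fold lower (1.35 to 1.48). Of 16 regulators, BACH1, a repressor of NRF2 target genes, was 1.53-fold lower in UMUC3 (1.44 to 1.63), and in SW780 1.36-fold higher (1.26 to 1.47). ATF3 was 1.41-fold lower in UMUC3 (1.18 to 1.70) and, in SW780, 1.70-fold higher (1.45 to 2.00). NEDD4L, a ubiquitin ligase, was 1.52-fold lower in UMUC3 (1.48 to 1.57) and stood at 45.5 and 46.4 CPM in SW780.

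**Figure D4:**
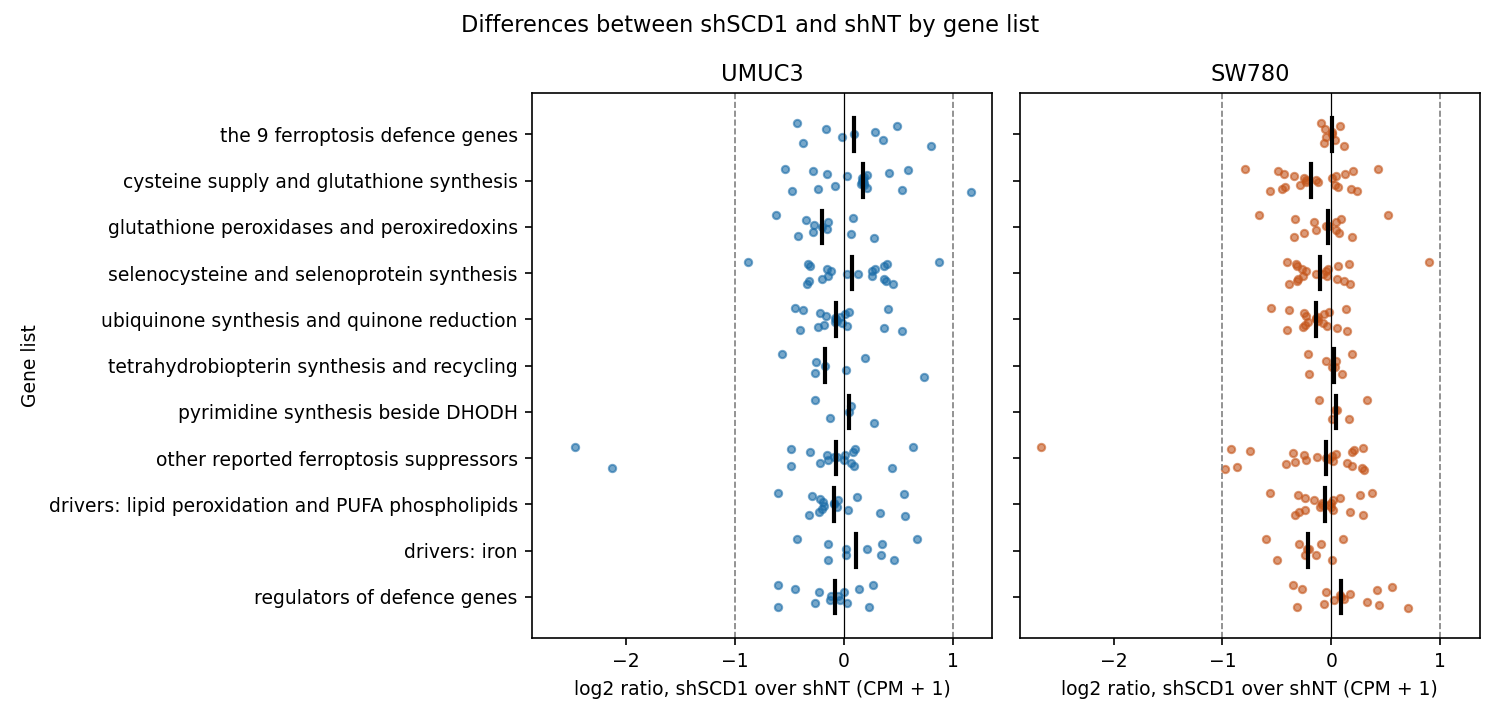
Log2 ratio of shSCD1 over shNT (CPM plus 1) of each gene at 1 CPM or more, by list and cell line, with the list's median as a black bar and dashed lines at 2-fold. The 9 defence genes spread from −0.43 to 0.80 in UMUC3 and from −0.09 to 0.12 in SW780, and nearly all genes of the other lists lie within 2-fold.

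Genes with the pattern most like that of a member were sought among 9137 genes with at least 5 CPM in all 4 libraries, by the distance over 3 values: the log2 ratio in each line and the log2 difference between the shNT libraries. Nearest to SLC7A11 were LACTB2 (distance 0.03), ZFP69 (0.05) and PRIM1 (0.08). Nearest to GPX4 were CENPQ (0.01), RBBP7 (0.02) and YTHDC2 (0.03). With 4 libraries, many genes lie close by such a measure.

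A difference shared by both lines was tested on the recovered reads with edgeR's quasi-likelihood test, cell line as a block, which leaves 1 residual degree of freedom. It called 0 of 9 members and 0 of 13087 genes (0.00%) at a Benjamini-Hochberg adjusted p of 0.05, with 425 genes below 0.05 unadjusted and none of the members among them. DESeq2 in the same design called 27 genes (0.206%), again none of the 9. For GPX4 edgeR's shared log2 fold change was 0.08, with an adjusted p of 0.981. SCD, at −2.43, had an adjusted p of 0.672 by edgeR and 8.13e-24 by DESeq2, so edgeR's test did not call the targeted gene in these 4 libraries.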

How the data were processed

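RNA of 4 libraries was sequenced from TruSeq libraries on a NovaSeq instrument, per the labels' protocols, on genome build hg38, per the submitters' processing notes. Not given in the sources used here were the aligner, counter, annotation and use of strand. Per the file headers, the authors deposited a GFOLD value (setting 0.01), a log2 fold change, an empirical FDR and 2 columns headed RPKM. The deposited FDR, a p-value type of column, holds 1 throughout and was set aside. The deposited signal in the RPKM columns holds reads per gene, as a count brought to one total per column without use of gene length: 100% of values up to 20 reads, and at least 99.9% of all, were within 0.1 of whole reads, so reads were recovered and CPM made from them (design written for either). A gene was kept if it reached 1 CPM in one library of its line or the other. The labels name no molecular identifiers, and intervals cover counting error only. Names missing in a table came from a table of Ensembl names, which matched 11115 of 17423 in UMUC3 and 4536 of 5009 in SW780. Lengths and positions are from GENCODE 29.

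Members and lists were chosen with earlier results of these data known. The rule for other genes took those past the size rule and up to 3 more per list with the largest ratios at 5 CPM or more. NFE2L2, GCLM, GCLC, TXNRD1, NQO1, GCHFR, ACSL4, VDAC2P5 and SLC7A11-AS1 were named outside it, after their values were seen. Tools were Python 3.11.15, scipy 1.17.1, edgeR 4.0.16 and DESeq2 1.42.0, and scripts were tested on simulated data. Alternatives were other scalings, a pseudocount of 0.1, other filters, a 1.5-fold rule and the authors' own ratios.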

Additional observations from a re-analysis of the deposited data

Results flagged for a closer look

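The log2 ratios of SLC3A2, AIFM2, DHODH and VDAC3 had opposite signs in the lines. UMUC3 minus SW780 was −0.49 for SLC3A2, −0.43 for AIFM2, 0.46 for DHODH and 0.34 for VDAC3, on the scale of CPM plus 1. With 1 library per group these differences were not tested, and the SW780 folds of AIFM2, DHODH and VDAC3 had counting intervals that include 1.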

How the results depend on the processing

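The count of members past the size rule was 0 in both lines under all scalings, filters and pseudocounts run and by the authors' own ratios; with a 1.5-fold rule it was 1 in UMUC3 (GCH1). The median log2 ratio of the 9 in UMUC3, 0.09, was 0.012 with the authors' log2 fold change and 0 with the GFOLD value, which is shrunk by construction. Of 72 single values per line, 62 in UMUC3 and 70 in SW780 stayed within the counting interval of the reported value; the rest came from the authors' columns. The authors' log2 fold change moved the median of all genes in UMUC3 by −0.08, and no scaling moved it by over 0.1. VDAC2 in UMUC3 was the one value to change sign, from −0.02 to 0.01 without mitochondrial transcripts in the total. Within a line no paired fit could be made, since each group held 1 library. Across the lines, the edgeR and DESeq2 fits pair the libraries by cell line and called none of the 9. Both fits look only for a difference shared by the lines, and edgeR's did not call SCD either, though DESeq2's did. They cannot decide on a difference seen in UMUC3 alone. Depth limits GCH1 in UMUC3 most, with 120 and 323 reads.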
